A study of Arabidopsis thaliana with 2 samples.

Results

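Far intergenic peaks of MYB3R3-GFP are the subject here: peaks whose midpoint lay outside every protein-coding gene and more than 500 bp from the nearest protein-coding gene end. There were 403 of them among 2931 peaks in all (13.7%), on the 5 nuclear chromosomes of Arabidopsis thaliana. Untreated whole Col-0 seedlings expressing a fusion of MYB3R3 with green fluorescent protein (GFP) were collected 9 days after germination. DNA bound by the fusion was recovered with an anti-GFP antibody to give 1 ChIP library, and 1 input library was made from the same kind of seedlings, so the fusion was present in both. Which promoter drives the fusion and how many seedlings were pooled is not stated in the labels. Results rest on the deposited peaks of the ChIP library, and the input was not used here.

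MYB3R proteins carry 3 MYB repeats and are known for acting on genes of the cell division cycle, where they recognise the mitosis-specific activator element near the start of transcription. MYB3R3 is known as a repressor-type member that works with RBR and E2F proteins in DREAM-like complexes. Intergenic sequence away from genes can hold distal regulatory elements, genes for RNAs that encode no protein, and transposon remnants. Each peak carries a score deposited by the authors, whose formula is not given, and it is used here only to rank peaks within the list. With 1 library there is no replicate error. No p-values are given, and intervals cover counting error only.

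The 403 far peaks were spread thinly. Sequence more than 500 bp from a protein-coding gene made up 38.9 Mb, or 32.6% of the chromosomes, and held 10.4 peaks per Mb. Intergenic sequence within 500 bp of a gene end held 57.4 peaks per Mb (905 peaks), the outermost 200 bp inside genes held 87.4 (993 peaks), and deeper gene sequence held 11.9 (630 peaks). The densities of far intergenic sequence and of deep gene sequence were both below the 24.6 peaks per Mb of the whole list.

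The far peaks lay between 502.5 and 8411 bp from the nearest gene end, with a median of 1148.5 bp and quartiles of 737.8 and 1974 bp. Of the 403 peaks, 230 were more than 1000 bp away, 98 more than 2000 bp and 8 more than 5000 bp. Density fell with distance, with 20.3 peaks per Mb between 500 and 1000 bp (173 peaks), 15.5 between 1000 and 1500 bp (82 peaks), 13.9 between 1500 and 2000 bp (50 peaks) and 13.4 between 2000 and 3000 bp (59 peaks). It was 9.09 per Mb between 3000 and 4000 bp (23 peaks) and 1.73 beyond 4000 bp (16 peaks). The last of these values moved most with the surroundings. Where the surrounding 100 kb held at least 20 protein-coding genes, density was 23.4 per Mb between 500 and 1000 bp and stayed between 18.9 and 19.3 from 1000 to 3000 bp. It was 12.9 per Mb both between 3000 and 4000 bp (14 peaks) and beyond 4000 bp (13 peaks).

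**Figure D1:**
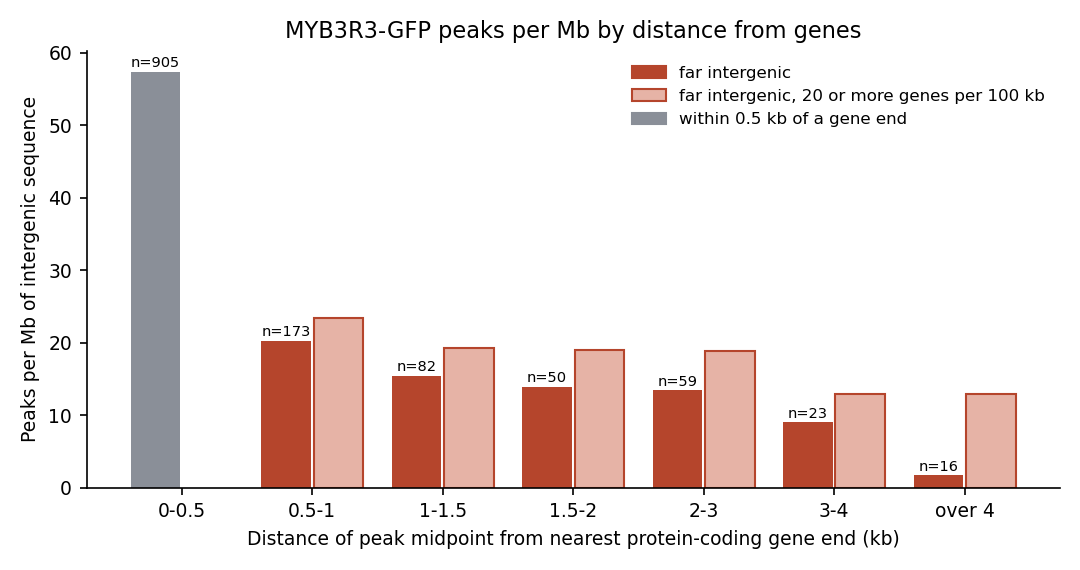
Peaks per Mb of intergenic sequence (vertical axis) by distance of the peak midpoint from the nearest protein-coding gene end in kb (horizontal axis), with the number of peaks above each dark or grey bar. Far peaks (red) fall to 1.73 per Mb beyond 4 kb in all sequence, but to 12.9 per Mb where the surrounding 100 kb holds at least 20 genes (pale bars), and the grey bar at 57.4 is intergenic sequence within 0.5 kb of a gene end.

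Far peaks were denser where protein-coding genes were denser. Far sequence with 0 to 9 protein-coding genes in the surrounding 100 kb amounted to 14.2 Mb and held 5 far peaks, or 0.352 per Mb. Far sequence with 10 to 19 genes held 5.87 per Mb (40 peaks), that with 20 to 29 genes 18.9 (268 peaks) and that with 30 or more genes 24.4 (90 peaks). Surroundings with at least 20 genes per 100 kb held 358 of the 403 far peaks. The median surroundings held 26 genes per 100 kb for far peaks, and 28 for all peaks. By chromosome, far density was 11.8 per Mb on chromosome 1 (108 peaks), 9.27 on chromosome 2 (68 peaks), 10.4 on chromosome 3 (81 peaks), 7.89 on chromosome 4 (50 peaks) and 11.6 on chromosome 5 (96 peaks). How much of the far sequence could take up mapped reads is not known from the list.

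**Figure D2:**
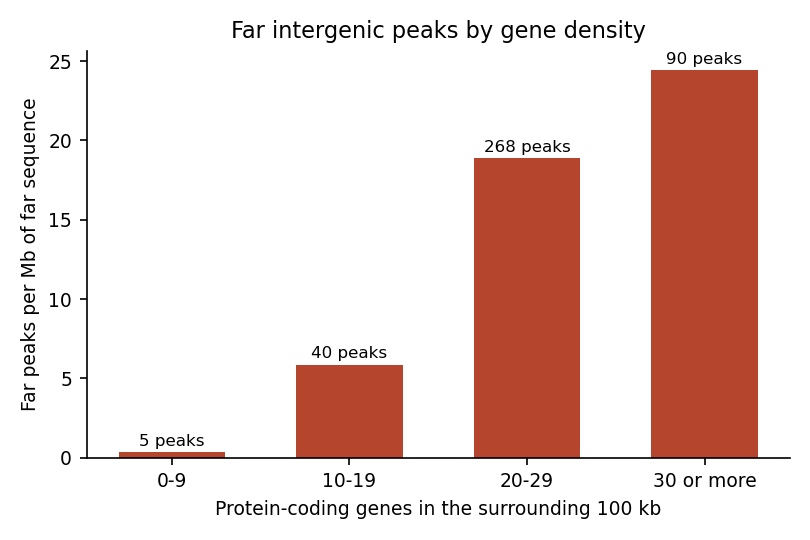
Far intergenic peaks per Mb of far intergenic sequence (vertical axis) by the number of protein-coding genes in the surrounding 100 kb (horizontal axis), with the number of peaks above each bar. Density is 0.352 per Mb in the poorest class and 24.4 per Mb in the richest.

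Far peaks had scores around the median of the list, and few high ones. Their median score was 17.0, with 12.5 and 23.5 as quartiles and values between 5.75 and 337.3, while the median over all 2931 peaks was 17.4. The exact 95% interval of the far median, 16.0 to 17.9, included the median of all peaks. Among the 733 highest-scoring peaks of the list, which are 25.0% of all peaks, were 66 far peaks, or 16.4% of the 403 (95% Wilson interval 13.1 to 20.3%). The corresponding shares were 26.9% for close intergenic peaks, 31.9% for peaks just inside gene ends and 17.0% for peaks deep inside genes. A score above 100 was reached by 10 far peaks (2.48%, 1.35 to 4.51%), against 4.67% of all peaks. Far peaks were also narrow, with a median width of 252 bp (exact 95% interval 244 to 260 bp) against 275 bp for all peaks. Together they covered 112.8 kb. Among the far peaks, score and distance had a Spearman's rho of -0.06 over 403 peaks of 1 library, and wider peaks had higher scores (rho of 0.50 over the same peaks).

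**Figure D3:**
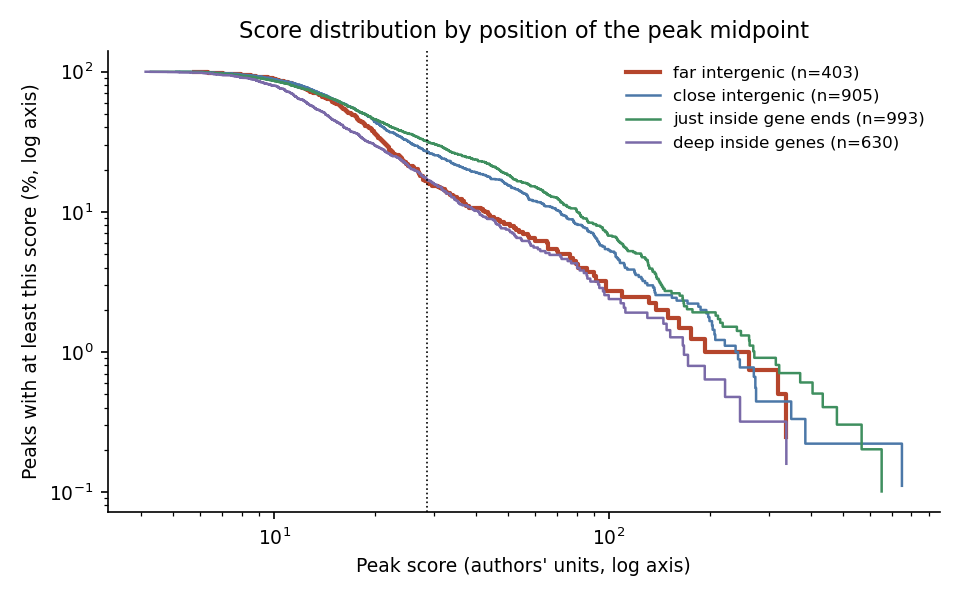
Share of peaks that reach at least a given score (vertical log axis, percent) against the authors' peak score (horizontal log axis), for far intergenic peaks (thick red line) and the other 3 position classes. The dotted line marks the score of 28.6 that the 733 highest-scoring peaks reach, where the far line stands at 16.4% beside 31.9% for peaks just inside gene ends.

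The strongest far peak lay on chromosome 3 from 10038152 to 10038575 (TAIR10), with a score of 337.3. Its midpoint was 835 bp from UKL2, a uridine kinase-like gene, and 2004 bp from AT3G27185, and neither gene had a peak of its own, meaning a midpoint in the gene or within 500 bp of it. The peak overlapped the lncRNA gene AT3G05205 by 71 bp. The next, on chromosome 2 from 19491157 to 19491732, had a score of 320.4 and lay in the middle of a space of 3134 bp between NDT1, an NAD+ transporter gene, and AT2G47500. It covered the whole 461 bp of the lncRNA gene AT2G09915.

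A far peak of high score stood beside TCX2, which encodes a TESMIN/TSO1-like CXC protein, a family with members in plant DREAM complexes. This peak ran from 8486219 to 8486657 on chromosome 4, scored 261.8 and lay 1461.5 bp from the gene. TCX2 also had a peak at its own end with a score of 118.9, so the far peak was the stronger of the pair. The other neighbour, AT4G14780, began 5775.5 bp away and had no peak.

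On chromosome 5 a far peak from 16206692 to 16207316 scored 193.6 and lay 1005.5 bp from AT5G40470 and 3645.5 bp from AT5G40460. AT5G40460 is also flanked, on its other side, by the highest peak of the whole list, with a score of 749.6. In that other space, another far peak scored 21.8.

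Among the next members, a peak on chromosome 3 from 1246475 to 1247028 (score 175.7) lay 540 bp from AT3G04600 and reached 360 bp into MUG1. MUG1 is MUSTANG 1, of a family related to Mutator transposases, and the annotation types it as a pseudogene, which is why the peak counted as far. A peak with a score of 162.3 on chromosome 3 from 22078126 to 22078627 lay 596 bp from SAC9, a phosphoinositide phosphatase gene, and overlapped the ncRNA gene AT3G59765 by 236 bp. A peak with a score of 149.6 on chromosome 1 from 17580037 to 17580571 lay 4211.5 bp from AT1G47765, in a space of 14173 bp. Among the 15 highest far peaks it was the one most distant from a protein-coding gene.

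The peak between MSS3 and AT2G43310 (chromosome 2, 17993586 to 17993947) scored 138.4 and lay 1719 bp from MSS3. The peak between CAT2, a catalase gene, and PIP3, an aquaporin gene also called PIP2;7, scored 131.8 and lay 2214 bp from PIP3 (chromosome 4, 16705966 to 16706329). On the other side of PIP3, 739 bp away, was another far peak with a score of 70.3. The peak between AGL42, a MADS-box gene, and TRM25, a gene of the TON1 recruiting motif family, scored 109.1 and lay 1645.5 bp from AGL42 (chromosome 5, 24970097 to 24970409). TRM25 had a peak of its own with a score of 65.1.

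The remaining 5 of the 15 highest far peaks scored between 86.0 and 98.1. They lay in the spaces between AT3G46617 and RDUF1 (a RING domain gene), HB18 (a homeobox-leucine zipper gene) and PIN3 (an auxin efflux carrier gene), AT1G10650 and AT1G10657, MTHFR2 and AT2G44175, and ML1 (a MEI2-like gene) and AT5G61970. The HB18 and PIN3 peak, with a score of 98.01, was 1125 bp from HB18, and PIN3 had a weaker peak of its own at 27.1. Of the 15 peaks, 11 were alone in their space and 7 overlapped a gene that was not protein-coding.

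**Figure D4:**
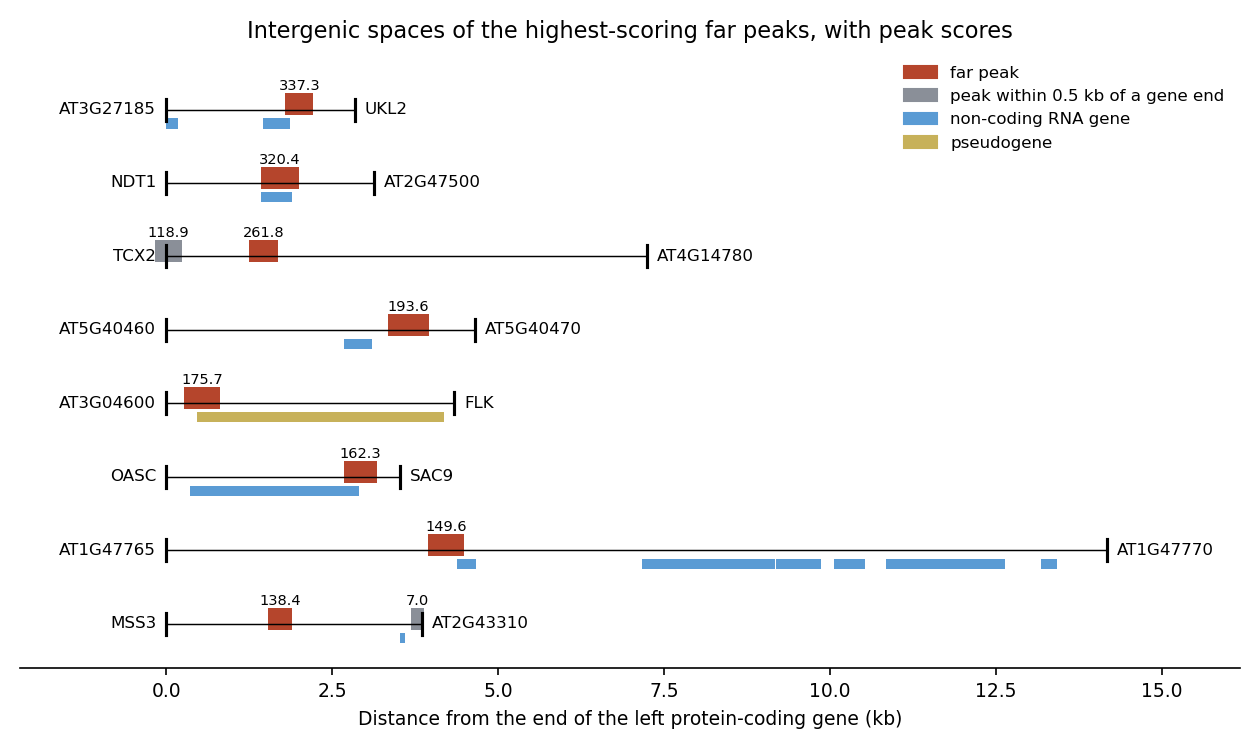
Intergenic spaces of the 8 highest-scoring far peaks, drawn to scale from the end of the left protein-coding gene (horizontal axis, kb), with far peaks in red, peaks within 0.5 kb of a gene end in grey and the score above each. Blue bars are non-coding RNA genes (all RNA types of the annotation) and the yellow bar is the pseudogene MUG1. The TCX2 space holds a far peak at 261.8 and a close one at 118.9.

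Of 106 cell cycle genes in 5 lists, 6 (5.66%) flanked a space with a far peak, against 722 of all 27444 protein-coding genes (2.63%). Seen from the peaks, 6 of the 403 far peaks (1.49%) had such a neighbour, against 34 of the 905 close intergenic peaks (3.76%). The list of D-type cyclins and CDK inhibitors (24 genes) was written by hand. Of the SIM and SMR inhibitor genes it included only SIM, SMR1 to SMR5 and SMR7. It held 4 of the 6 genes and 4 of the 6 peaks. These were CYCD4;1 (peak score 21.3, 1940 bp away), CYCD2;1 (18.6, 889 bp), the CDK inhibitor gene KRP5 (15.8, 2160.5 bp) and CYCD5;1 (12.3, 2959 bp). The peak beside KRP5 lay nearer to PRT1, at 655.5 bp. CYCD4;1 and CYCD5;1 also had peaks of their own, with highest scores of 273.5 and 42.9, while CYCD2;1 and KRP5 had none.

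The G2/M list of 32 genes had 1 such gene, SCL28, a GRAS family regulator, with a far peak of score 13.9 at 3564 bp and a peak of its own at 75.7. That far peak lay nearer to PP2-A11, at 2675 bp. The cytokinesis list of 10 genes had 1 such gene, KNOLLE, the syntaxin of the cell plate, with a far peak of score 16.1 at 1174.5 bp beside its own peak at 159.2. ACHT4 was nearer to that far peak, at 519.5 bp. The 26 DNA replication genes and the 14 genes of the MYB3R, E2F and RBR regulators had no far peak beside them, while 8 and 5 close intergenic peaks lay beside these lists. Of 20 developmental regulators of shoot and root, 1 had a far peak in an adjoining space. This was KNAT1, a homeobox gene of the shoot meristem, with a score of 22.0 at 4536.5 bp, and no peak of its own. AT4G08160 was nearer to this far peak, at 3337.5 bp. The highest of these 7 peaks scored 22.0, and all of them lay below the score of 28.6 that marks the 733 highest peaks. This holds for the listed genes only. The lists did not include TCX2 or AT5G40460, beside which the highest far peaks scored 261.8 and 193.6.

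Some genes next to far peaks had another peak. The far peaks were flanked by 722 protein-coding genes, of which 91 (12.6%, 10.4 to 15.2%) had a peak within 500 bp of one of their own ends. Peaks more than 200 bp inside a gene were left out of this count. Among all 16724 genes that flank a space over 1000 bp, the share by the same count was 7.61% (7.22 to 8.02%), and the 722 genes are part of that number. Over all 27444 protein-coding genes the share was higher, 9.27% (8.94 to 9.62%).

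Most far peaks were alone in their intergenic space. The 403 peaks lay in 369 spaces, of which 337 held 1 far peak, 30 held 2 and 2 held 3, out of 11074 spaces over 1000 bp. The spaces with a far peak had a median length of 4505 bp, against 2371 bp for all spaces over 1000 bp. Another peak of either kind shared the space with 94 far peaks (23.3%, 19.5 to 27.7%). Among the 905 close intergenic peaks the share was lower, 6.08% (55 peaks, 4.70 to 7.83%), so being alone was not particular to far peaks. In the 33 spaces with both a far and a close peak, the far peak had the higher score in 17 and the close one in 16. The distance to the nearest peak of any class had a median of 6.85 kb, with quartiles of 2.35 and 18.9 kb.

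The tightest group of far peaks lay in the space between EXL3, an EXORDIUM-like gene, and AT5G51560, where the midpoints of 3 peaks stood within 2024.5 bp (chromosome 5, 20941226 to 20943545) with scores of 57.8, 18.7 and 10.2. The space between AT1G06148 and ORA59, an ethylene response factor gene of jasmonate signalling, held 3 within 3363.5 bp, with scores of 16.4, 8.63 and 6.20. On both sides of ERF4, another ethylene response factor gene, 3 far peaks stood within 5650.5 bp, with scores of 9.72, 22.0 and 21.6. The score of 57.8 in the EXL3 space was the only one of these 9 above 28.6.

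Genes that are not protein-coding were touched by 80 far peaks (19.9%, 16.2 to 24.0%), against 11.0% of all peaks. Close intergenic peaks touched such a gene in 17.7% of cases and peaks just inside gene ends in 4.73%. These genes also covered more of the far intergenic sequence, 28.7%, than of the close intergenic sequence, 4.62%. By midpoint, 62 far peaks (15.4%, 12.2 to 19.2%) lay inside such a gene, which was below the share of far sequence, while 10.6% of close intergenic peaks did, above their share. The shares differed by type of gene. lncRNA genes covered 1.56% of far intergenic sequence and held 43 far midpoints (10.7%, 8.02 to 14.1%). Pseudogenes covered 23.7% of that sequence and held 3 midpoints (0.744%, 0.253 to 2.17%). Transcribed pseudogenes covered 2.34% and held 1 midpoint (0.248%), genes typed ncRNA covered 0.436% and held 7 (1.74%), and genes typed misc_RNA covered 0.857% and held 6 (1.49%). No midpoint lay in a miRNA gene, where the limit that a count of 0 sets, taken as 3 of 403, is 0.744% (the Wilson interval ends at 0.944%), and miRNA genes covered 0.0781% of the sequence.

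Pseudogenes gathered in gene-poor sequence, where few far peaks lay, so the shares were also taken in far sequence with at least 20 protein-coding genes per 100 kb. There lncRNA genes covered 2.55% of the sequence and held 38 of 358 far midpoints (10.6%, 7.83 to 14.2%), and pseudogenes covered 8.12% and held 1 (0.279%, 0.0493 to 1.57%). In sequence with fewer genes, lncRNA genes covered 0.714% and held 5 of 45 midpoints (11.1%, 4.84 to 23.5%), and pseudogenes covered 37.0% and held 2 (4.44%, 1.23 to 14.8%). In both kinds of surroundings, the share of midpoints was above the share of sequence for lncRNA genes and below it for pseudogenes. Whether the lncRNA genes are transcribed in these seedlings, and in which direction, was not examined here.

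**Figure D5:**
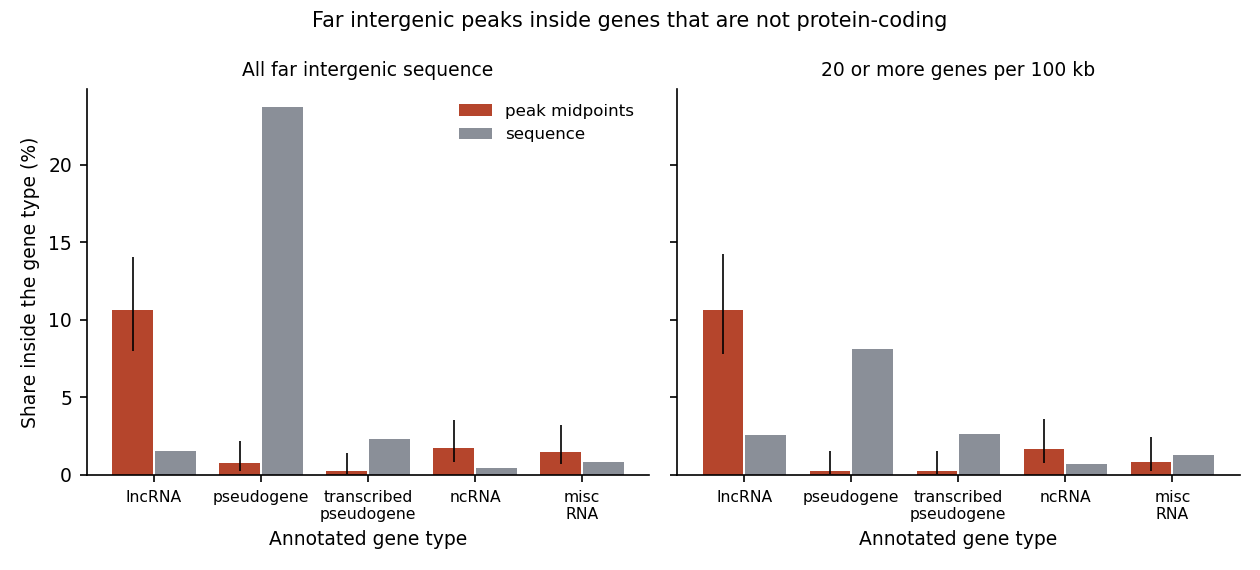
Share of far peak midpoints (red, with 95% Wilson intervals) and of far intergenic sequence (grey) that lies inside each type of gene that is not protein-coding (vertical axis, percent), for all far sequence on the left and for surroundings with at least 20 protein-coding genes per 100 kb on the right. lncRNA genes hold 10.7% of midpoints on 1.56% of the sequence, and pseudogenes 0.744% on 23.7%.

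Far peaks that overlapped such a gene and those that overlapped none had similar scores, with medians of 18.005 (80 peaks) and 16.6 (323 peaks). The 733 highest-scoring peaks of the list included 13 of the far peaks with an overlap (16.2%) and 53 of those without (16.4%). Besides the peaks already named, the strongest that touched a gene of these types were at the transcribed pseudogene NMT2, named as an N-myristoyltransferase (score 90.4), and at the lncRNA genes AT5G00995 (76.3) and AT3G08455 (69.8). The AT5G00995 peak lay 573 bp from CAT6, a cationic amino acid transporter gene, and covered all 220 bp of the lncRNA gene. AT5G22792, a transcribed pseudogene, had a peak with a score of 60.3.

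The most remote far peak lay on chromosome 5 from 6399471 to 6399722, 8411 bp from AT5G19100, with a score of 22.8, and overlapped 2 lncRNA genes. The next 4 were 6381.5 bp from NCED3, the abscisic acid synthesis gene (score 13.96), 5842.5 bp from AT3G28170 (20.4), 5737.5 bp from SUC1, a sucrose transporter gene (11.2), and 5720 bp from HB-2, a homeobox gene (17.7). None of these 5 reached the score of 28.6.

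The widest far peak, of 994 bp, lay between MST1 and AGC1.7, a protein kinase gene, with a score of 25.1. The next had 832 bp between AT4G36640 and PBRP (score 15.9), and 629 bp between WOL, a cytokinin receptor gene, and EXGT-A3, a xyloglucan endotransglucosylase gene (53.8). The lowest scores, 5.75, 5.80 and 5.87, belonged to peaks of 196 to 216 bp beside AT4G26370, CAS1 and AT3G01516.

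At the limit of 500 bp, the 3 far peaks nearest to a gene lay 502.5 bp from NAC045 (score 11.7), 503 bp from PYL5 (14.6) and 503 bp from EXL3 (57.8). The 3 intergenic peaks just short of the limit lay 499 bp from AT1G61540 (8.51), 494.5 bp from TPR2 (19.02) and 493.5 bp from RAT5 (12.8).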

How the data were processed

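The labels describe 1 ChIP and 1 input library, and the deposited peak list of the ChIP library was used. The build was TAIR10, and MACS2, Bowtie 0.12.7 and SAMtools 0.1.18 were used, per the submitters' processing notes. The sources used here state neither their roles nor the peak threshold and the read depth. The authors deposited a score per peak with no stated formula, and, as other deposited values, start and end in bp (start counting from 0; printed from 1).

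Genes came from a TAIR10.1 RefSeq table (27444 protein-coding and 10455 other genes on the nuclear chromosomes). It gives no strand or exons, so no gene coordinates, promoters or directions are printed. The midpoint of a peak is the mean of its start and end. Sequence amounts count each base by the same rule, with each chromosome ending at its last gene. Gene density counts gene midpoints within 50 kb on either side of a peak midpoint. Position classes were checked on simulated peaks at known distances.

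Members, gene lists (126 loci, all in the table) and rules for naming were chosen with earlier results of these data known. Named were the 15 highest, 5 most remote, 3 widest and 3 lowest peaks, 3 on each side of the limit, those beside listed genes, the 3 tightest groups (at least 3 far peaks in 10 kb), and the 10 highest at genes of other types. MUG1, the other far peaks beside AT5G40460 and PIP3, and the split at 20 genes per 100 kb were chosen after values were seen. Shares have 95% Wilson intervals, medians exact binomial ones. Values were computed with SciPy 1.17.1, NumPy 2.4.6 and pandas 2.3.3 in Python 3.11.15, and plotted with matplotlib 3.10.9.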

Additional observations from a re-analysis of the deposited data

How the results depend on the processing

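Of 34 alternative values for 6 results, 22 stayed within 1.5 times the count or within the interval of the share or median. The number of far peaks was 230 beyond 1000 bp, 98 beyond 2000 bp, 196 among the 1467 higher-scoring peaks and 66 among the 733 highest-scoring, all smaller by construction. With these 2 selections on score the median score was 23.8 and 48.0 and the median width 281.5 and 329.5 bp. The share with another peak in the space was 33.7% beyond 2000 bp, and 17.9% and 6.06% with the 1467 and 733 peaks. For these last 2 shares the other peak also had to be among the 1467 or 733, which left fewer to find. The share that overlapped a gene that is not protein-coding was 0% when genes of every type set the distance, since such peaks then no longer counted as far. That rule left 302 far peaks, and 341 remained when the whole peak had to lie over 500 bp away.

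The share in the 733 highest-scoring peaks ranged from 13.3 to 17.5% over its 4 alternatives. The comparison of start and end of transcription and the motif search were not run, since no strand or sequence was used here. No paired analysis was possible because a single ChIP library gave all peaks, and none could be left out. With depth not known from the list, binding below the authors' threshold could not be seen.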
